A study of Mus musculus with 15 samples.

Results

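Messenger RNA of 9 genes of inflammatory signalling was followed in mouse brain: the cytokines Il1b, Tnf and Il6, the chemokines Ccl2, Ccl3 and Ccl4, the inflammasome sensor Nlrp3, the NF-kB inhibitor Nfkbia and the inducible prostaglandin synthase Ptgs2. They were taken by gene symbol from 45777 symbols in the deposited read counts. The choice was made with earlier results of these data known. Of the 9 genes, 5 (Il1b, Tnf, Il6, Ccl2 and Ccl4) lay near the detection floor in most libraries, and Nfkbia, Ptgs2, Nlrp3 and Ccl3 were clear of it. Among the members clear of the floor, group means differed most for Ptgs2. Its level was 7.81 ± 3.77 CPM (counts scaled to the library total, with TMM factors) with the high inhibitor dose, 10.2 ± 1.49 with the low dose, 2.57 ± 1.50 with levodopa, 1.97 ± 1.49 after MPTP alone and 3.54 ± 2.42 in controls (SD, n = 3 each). Nfkbia had group means of 14.1 to 16.7 CPM, and no member passed the edgeR test in any of 7 comparisons.

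The study asked what an inhibitor of Bruton's tyrosine kinase (BTK), a signalling kinase of B cells and myeloid cells, does after MPTP, a compound toxic to dopamine neurons with which Parkinson's disease is modelled in mice. Each of 5 groups had 3 brain libraries, from a protocol of 8 mice per group. In the inhibitor groups 1 week of intraperitoneal MPTP at 20 mg/kg/day was followed by 4 weeks of the inhibitor, at a high dose (2 µg/kg/day by one label, 50 pM by another) or a low dose (1 µg/kg/day, or 25 pM). The levodopa group received the same MPTP course and then levodopa (2 mg/kg/day) for 4 weeks, by mouth in one label and by intraperitoneal injection in another. The MPTP group had the toxin for 1 week and then a normal diet for 4 weeks, and the control group had a normal diet for 5 weeks (6 by another label) and no toxin. No source used here names the inhibitor, the strain, age and sex of the mice, the part of the brain taken or any vehicle. Whether every library stands for its own mouse is not stated, and the spread behind the p-values may therefore be technical.

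In resting cells the NF-kB transcription factors are held in the cytoplasm by inhibitor proteins, of which IkBα, the product of Nfkbia, is the best known. Stimuli such as bacterial products or cytokines lead to its breakdown, and NF-kB then turns on cytokine and chemokine genes, Ptgs2 and Nfkbia itself, which makes Nfkbia part of a feedback loop. NLRP3 assembles an inflammasome that activates caspase 1, which cuts the precursor of IL-1β into its active form. Ptgs2 encodes cyclooxygenase 2, which converts arachidonic acid to prostaglandin H2. In the brain microglia are a main source of the cytokines, while Ptgs2 is expressed in excitatory neurons of the cortex and hippocampus, where it behaves as an immediate early gene that follows synaptic activity, and in blood vessel cells during fever.

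Promoter sequence is shown for the member clear of the detection floor with the widest range between libraries, Ptgs2, and for the steadiest one, Nfkbia. RefSeq sequences (GRCm38.p6) were found for 7 of the 9 members. Capitals mark matches to motifs that were chosen after the sequences had been read. In Ptgs2 (chromosome 1, plus strand) the capitals are TTGCGCAA, a palindromic site bound by C/EBP proteins, at bases -69 to -62. Base 1 is the annotated start and -1 the base before it, and where transcription begins in these libraries was not tested. In the short stretch after the annotated start the capitals are CGTCA, the TGACG half-site of a cyclic AMP response element on the opposite strand, at bases 14 to 18. In Nfkbia (chromosome 12, minus strand) they are a match to the NF-kB consensus at bases -29 to -20.
Ptgs2, 250 bases before the start, chr1:150099781-150100030: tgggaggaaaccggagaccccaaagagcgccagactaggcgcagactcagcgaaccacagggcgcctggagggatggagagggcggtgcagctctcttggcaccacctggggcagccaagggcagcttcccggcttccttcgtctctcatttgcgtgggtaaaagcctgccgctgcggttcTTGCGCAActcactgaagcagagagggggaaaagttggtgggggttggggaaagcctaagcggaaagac
Ptgs2, 25 bases after the start, chr1:150100034-150100058: gtcaccactaCGTCAcgtggagtcc
Nfkbia, 250 bases before the start, chr12:55492648-55492897: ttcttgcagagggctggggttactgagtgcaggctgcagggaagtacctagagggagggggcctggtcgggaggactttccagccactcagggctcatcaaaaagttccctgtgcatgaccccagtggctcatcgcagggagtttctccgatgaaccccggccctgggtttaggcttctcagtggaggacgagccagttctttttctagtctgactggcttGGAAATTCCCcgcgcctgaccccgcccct
Both strands were searched in windows of 250 bases before and 50 bases from the start. Of 32544 RefSeq promoters, 0.184% held TTGCGCAA, 20.9% TGACG, 1.8% the full element TGACGTCA, and 8.49% the NF-kB consensus. The share for TTGCGCAA counts these exact letters only. They were picked after reading, so it does not measure how unusual the Ptgs2 promoter is. The full element matched in none of the members found. The half-site lies within the full element, so these matches overlap by construction. The NF-kB consensus also matched in Il6 at bases -44 to -35 and upstream of one Nlrp3 start, and the half-site in Il6 and after the other Nlrp3 start. TATAAA, held by 13.6% of promoters, matched in Il1b at -31 to -26, in Tnf at -29 to -24 and after the start of Nfkbia. No match to the NF-kB consensus was present in the Ptgs2 window, which says only that these letters are not there.

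Libraries held 58149722 to 68257095 reads, with 58149722 to 61998459 for the inhibitor groups (6 libraries) and 63314658 to 68257095 for the rest (9 libraries). Levodopa 2 and control 2 stood apart, with summed levels of 12 cerebellum markers of 6960 and 8370 CPM against 231 to 535 CPM in the other 13 libraries, and results are given with and without this pair where it matters. Their 14 summed microglia markers were also lowest, at 175 CPM in levodopa 2 and 149 CPM in control 2, against 351 to 439 CPM in the rest. The inhibitor libraries stood apart in the score of 12 markers of cortical and hippocampal excitatory neurons, the mean of their gene-centred log2 CPM. It was 0.61 to 1.93 with the high dose and 1.73 to 2.11 with the low dose, against -2.02 to 0.03 with levodopa, -1.53 to -0.98 after MPTP alone and -1.77 to -0.70 in controls. Their summed CPM did not separate the groups in this way: it was 606 to 1370 with the high dose, 1350 to 1680 with the low dose, 402 to 1340 with levodopa, 440 to 459 after MPTP and 480 to 1510 in controls, with levodopa 2 and control 2 the highest of their groups. Astrocyte markers, which fit the labelled tissue, were present in all 15 libraries at a summed 2860 to 3860 CPM. Fewer cells of a type and less RNA per cell cannot be told apart in such bulk samples.

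A member was called near the floor in a library with under 10 reads, and near it overall where this held in at least 8 of 15 libraries. Il6 was below 10 reads in all 15 libraries and at 0 in 9 of them. Tnf and Ccl4 were each below 10 reads in 13 libraries, and Il1b and Ccl2 in 12. Ccl3 was below 10 reads in 3 libraries, while Nlrp3, Ptgs2 and Nfkbia never were. A count of 0 in a library allows up to 3 reads, at most 0.0516 CPM, and these limits cover counting error only. Even numbers made up 54.4% to 56.4% of counts between 2 and 21. That window starts on an even number, so evens exceed odds in any case where lower counts are the commoner ones. The share therefore cannot show whether mates of a pair were counted separately, which was not tested. If they were, the counting error of low values is larger than the read numbers imply.

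**Figure D1:**
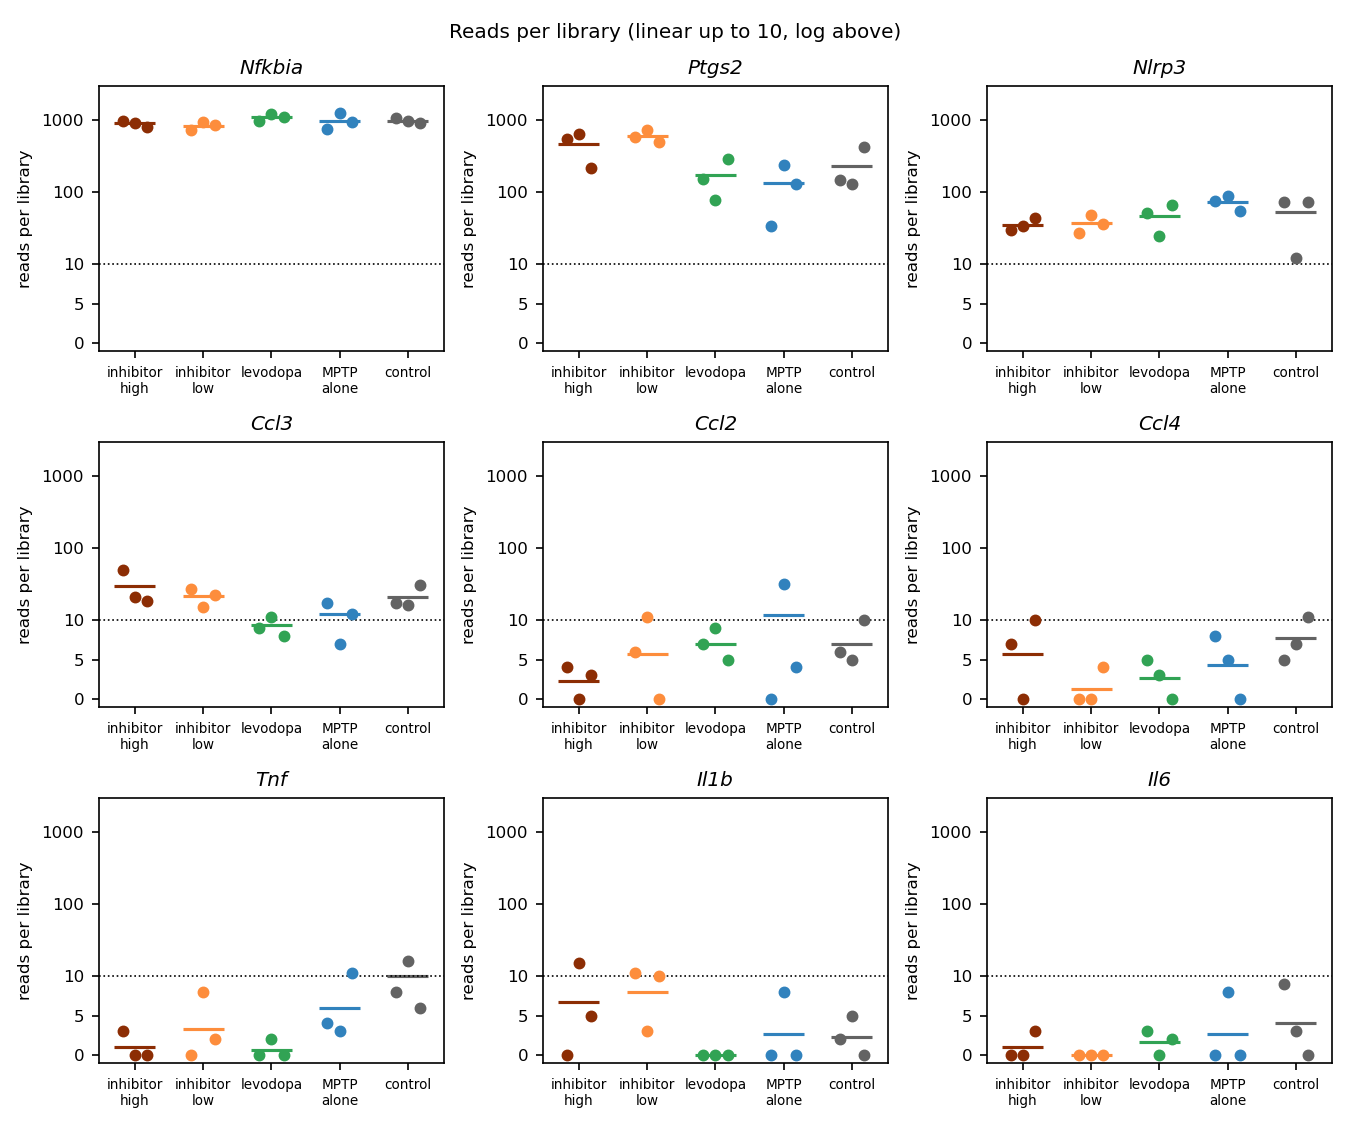
Reads per library of the 9 genes in the 5 groups (points, 3 libraries per group; horizontal bars, group means), on an axis that is linear up to 10 reads and logarithmic above; the dotted line marks 10 reads. Nfkbia lies between 726 and 1247 reads in all 15 libraries, Ptgs2 spans 34 to 725 reads, and most points of Ccl2, Ccl4, Tnf, Il1b and Il6 lie under the line.

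Per kilobase of exon, averaged over the 15 libraries, Nfkbia had the highest level at 9.38 CPM per kb. Ptgs2 followed at 1.14, Ccl3 at 0.389 and Nlrp3 at 0.185 CPM per kb, and the 5 genes near the floor had 0.0116 CPM per kb (Il6) to 0.103 CPM per kb (Ccl4). The order of abundance is thus the inhibitor of the pathway first, and the secreted cytokines last. Over the 15 libraries the coefficient of variation of the CPM was 14.5% for Nfkbia, 41.1% for Nlrp3, 60.9% for Ccl3 and 74.1% for Ptgs2. The highest library was 1.8 times the lowest for Nfkbia and 23.7 times the lowest for Ptgs2.

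The filter on low counts let 5 of the 9 members into the test: Nfkbia, Ptgs2, Nlrp3, Ccl3 and Il1b. Il1b passed it through 3 libraries with 10 reads or more, all from inhibitor-treated mice. Its place in the test thus rests on the groups where it is high, and its fold changes and counts support nothing. It stays in the counts of 5 below, where it was never called and overlapped in every comparison. A member was called where edgeR's quasi-likelihood test, adjusted over all 21821 genes tested, gave an adjusted p below 0.05. In high dose against MPTP 0 of the 5 were called, where 1.97% of all genes were, and in low dose against MPTP 0 of 5, where 8.53% of all genes were. For levodopa against MPTP and for MPTP against control the counts were 0 of 5 with a background of 0% each. At an unadjusted p below 0.05, 645 genes differed between levodopa and MPTP and 1445 between MPTP and control, and DESeq2 called 2 and 51 genes there. Against controls, 0 of 5 members were called with the high dose (background 0.376%) and 0 of 5 with the low dose (background 5.40%). Between the high and the low dose 0 of 5 were called, with a background of 0%, 486 genes at an unadjusted p below 0.05 and 2 genes by DESeq2.

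Groups of 3 can also be read by whether their libraries overlap. With the high dose 3 of the 5 tested members did not overlap with MPTP alone, Ptgs2 and Ccl3 higher and Nlrp3 lower, where 39.8% of all genes did not overlap. With the low dose Ptgs2 was higher and Nlrp3 lower than every MPTP library, 2 of 5, where 40.7% of all genes did not overlap. The share for the low dose is near the background, and that for the high dose, above it, rests on 5 genes. Levodopa against MPTP gave 0 of 5 with a background of 9.58%, and MPTP against control gave 1 of 5, Ccl3, which was lower, with a background of 13%. The high dose against control gave 0 of 5 (background 27.4%), the low dose against control 1 of 5, Ptgs2, which was higher (background 26.2%), and the high against the low dose 0 of 5 (background 10.6%). The 3 comparisons with MPTP share its libraries, and the median log2 fold change over all genes was within 0.01 of 0 in each of the 7.

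**Figure D2:**
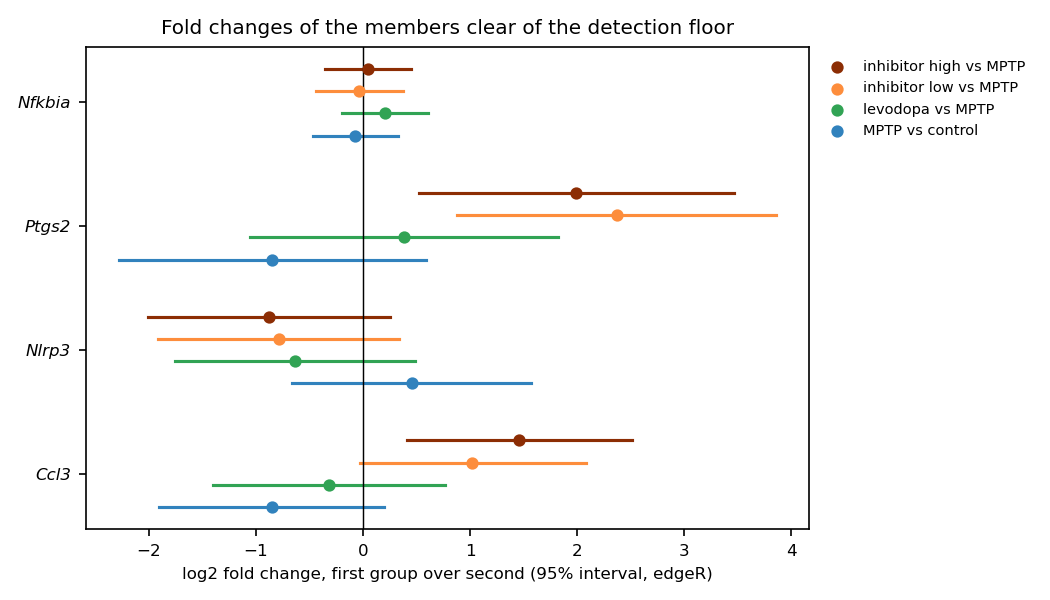
Log2 fold changes (points) with 95% intervals from edgeR (lines) of the 4 members clear of the floor, the first-named group over the second; the vertical line is no difference. The Ptgs2 intervals for the high dose (0.52 to 3.46) and the low dose (0.88 to 3.86) against MPTP, and the Ccl3 interval for the high dose (0.41 to 2.51), lie above 0, while all Nfkbia and Nlrp3 intervals cross it.

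Among the cytokines, Il1b encodes interleukin 1β, a fever-inducing cytokine that the inflammasome activates. It had 0, 15 and 5 reads in high-dose libraries 1, 2 and 3, and 11, 3 and 10 in the low-dose libraries, against 0, 8 and 0 after MPTP alone. Levodopa libraries had no Il1b read, and controls had 2, 5 and 0. The inhibitor groups held the 3 highest libraries but also 1 library at 0, so they overlapped with MPTP. The log2 fold change of Il1b was 1.46 (SE 1.49, edgeR adjusted p = 0.668) for the high dose and 1.75 (SE 1.48, adjusted p = 0.504) for the low dose against MPTP, and 0.10 (SE 1.60, adjusted p = 0.988) for MPTP against control. Levodopa against MPTP gave an edgeR adjusted p of 0.954, and no fold is given because the levodopa libraries were at 0. The exons of Il1b (GRCm38 chromosome 2, 129364570 to 129371139, minus strand) overlap those of Il1bos on the opposite strand. No stretch of 50 bases of Il1b transcripts occurs in transcripts of another gene. As no source used here gives the strand setting of the counting, reads across the overlap are uncertain.

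Tnf encodes tumour necrosis factor, which activates NF-kB through its own receptors. Its reads were 3, 0 and 0 with the high dose, 0, 8 and 2 with the low dose, 0, 2 and 0 with levodopa, 4, 3 and 11 after MPTP alone and 8, 16 and 6 in controls. After MPTP Tnf had 18 reads in sum (95% Poisson interval 10.7 to 28.4), against 30 reads (20.2 to 42.8) in controls, the highest group, and these intervals, which cover counting error only, overlap. In levodopa libraries Tnf had 2 reads in sum (0.242 to 7.22), and all 3 lay below every MPTP library, where 9.58% of all tested genes did not overlap. The separation rests on 2 reads in levodopa 2 against 3 in MPTP 2. Tnf did not pass the filter on low counts, and the highest control was control 2, one of the cerebellum-rich pair.

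Il6, which encodes interleukin 6, an inducer of the acute phase response, was lowest of all. It had 0, 0 and 3 reads with the high dose, no read with the low dose, 3, 0 and 2 with levodopa, 0, 8 and 0 after MPTP alone, and 9, 3 and 0 in controls. No group stood clear of the others. The highest MPTP library for Il6 was MPTP 2, which also held all Il1b reads of its group.

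The chemokine gene Ccl2 (GRCm38 chromosome 11, 82035571 to 82037453), whose product draws monocytes, had 4, 0 and 3 reads with the high dose and 6, 11 and 0 with the low dose. It had 7, 9 and 5 reads with levodopa, 0, 31 and 4 after MPTP and 6, 5 and 10 in controls. One library, MPTP 2, gave 31 of the 35 reads of its group, and the same group held a library at 0. Ccl4, whose product attracts lymphocytes and monocytes, ranged from 0 to 11 reads, with 7, 0 and 10 reads with the high dose, 0, 0 and 4 with the low dose, 5, 3 and 0 with levodopa, 8, 5 and 0 after MPTP, and 5, 7 and 11 in controls. Neither gene separated any inhibitor or levodopa group from MPTP alone.

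Ccl3, which encodes macrophage inflammatory protein 1α, which attracts monocytes and macrophages, was the one chemokine clear of the floor. It had 50, 21 and 18 reads with the high dose, 27, 15 and 22 with the low dose, 9, 11 and 8 with levodopa, 17, 7 and 12 after MPTP and 17, 16 and 30 in controls. All 3 high-dose libraries lay above all MPTP libraries in CPM, while the low-dose range touched that of MPTP. Group levels were 0.489 ± 0.283 CPM with the high dose, 0.361 ± 0.108 with the low dose, 0.142 ± 0.0316 with levodopa, 0.177 ± 0.0731 after MPTP and 0.320 ± 0.109 in controls (SD, n = 3 each). The wide spread of the high-dose group came from 1 library at 0.815 CPM. Against MPTP the log2 fold change of Ccl3 was 1.46 (SE 0.48, edgeR adjusted p = 0.130) for the high dose, and 1.02 (SE 0.49, adjusted p = 0.204) for the low dose. It was -0.32 (SE 0.50, adjusted p = 0.954) for levodopa. With the cortex and hippocampus score as a covariate Ccl3 was at 0.94 for the high dose (edgeR adjusted p = 0.865) and 0.39 for the low dose (adjusted p = 0.931). MPTP against control gave -0.85 (SE 0.48, edgeR adjusted p = 0.717) with no overlap between the libraries, by a narrow margin of 0.249 CPM in MPTP 1 against 0.252 CPM in control 1. In RefSeq the Ccl4 record begins at base 83648624 of chromosome 11, inside the Ccl3 locus (83647844 to 83649355) and on the opposite strand, so without a known strand setting reads of this pair are uncertain.

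The inflammasome sensor gene Nlrp3 (GRCm38 chromosome 11, 59541568 to 59566956, plus strand) was lower in mean in both inhibitor groups than after MPTP alone. It had 29, 33 and 43 reads with the high dose, 27, 48 and 36 with the low dose, 51, 24 and 65 with levodopa, 75, 89 and 55 after MPTP and 72, 12 and 72 in controls. No inhibitor library reached the lowest MPTP library, but the control group spanned nearly the whole range. In CPM this was 0.582 ± 0.129 with the high dose, 0.622 ± 0.162 with the low dose, 0.693 ± 0.283 with levodopa, 1.07 ± 0.244 after MPTP and 0.778 ± 0.503 in controls (SD, n = 3 each). The log2 fold change of Nlrp3 against MPTP was -0.88 (SE 0.52, edgeR adjusted p = 0.404) for the high dose, -0.78 (SE 0.52, adjusted p = 0.375) for the low dose and -0.63 (SE 0.52, adjusted p = 0.954) for levodopa, and MPTP against control gave 0.46 (SE 0.51, adjusted p = 0.789). The lowest 2 libraries were levodopa 2 at 0.386 CPM and control 2 at 0.197 CPM, the cerebellum-rich pair with the fewest microglia marker reads. Without that pair the log2 fold change of MPTP against control was 0.00 and that of levodopa against MPTP -0.35. With the cortex and hippocampus score as a covariate the log2 fold change of Nlrp3 against MPTP was -1.60 for the high dose (edgeR adjusted p = 0.850) and -1.70 for the low dose (adjusted p = 0.786).

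Nlrp3 is expressed mainly by microglia in the brain, so its level is given beside the microglia markers. Of 14 microglia markers 0 passed in any of the 7 comparisons, and their sums were 364 to 400 CPM with the high dose, 351 to 414 with the low dose, 175 to 353 with levodopa, 351 to 419 after MPTP and 149 to 439 in controls. Against MPTP, 9 of the 14 had log2 fold changes above 0 with each dose. Single markers moved apart: Itgam had 13.8 to 16.0 CPM in inhibitor libraries against 20.2 to 25.4 after MPTP, and Trem2 7.97 to 10.6 against 5.31 to 6.81. A ratio to the sum thus depends on the markers chosen. Per 1000 CPM of these markers, Nlrp3 stood at 1.54 ± 0.351 with the high dose, 1.61 ± 0.407 with the low dose, 2.34 ± 0.3 with levodopa, 2.85 ± 0.464 after MPTP and 2.1 ± 0.68 in controls (SD, n = 3 each). On this scale too the inhibitor libraries, at 1.14 to 1.94, lay below all MPTP libraries, at 2.31 to 3.12, while controls ran from 1.32 in control 2 to 2.55 and so overlapped with the inhibitor groups. Over the 9 libraries without inhibitor Nlrp3 and the microglia score had a Pearson r of 0.96, and over the 6 inhibitor libraries an r of 0.14. These describe libraries that share groups. Levodopa 2 and control 2 lay apart from the rest of the 9, at microglia scores of -1.06 and -1.31 against -0.05 to 0.32. An r without that pair was not computed. The inhibitor libraries spanned only 0.13 to 0.35, so the 2 values of r cannot be compared. Over the same 9 libraries Nlrp3 had an r of 0.93 with lymphocyte markers and -0.91 with cerebellum markers.

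Nfkbia (GRCm38 chromosome 12, 55489410 to 55492647, minus strand), the feedback inhibitor, was the most even member. Reads were 980, 924 and 807 with the high dose, 726, 942 and 849 with the low dose, 962, 1232 and 1116 with levodopa, 752, 1247 and 955 after MPTP and 1063, 986 and 914 in controls. Each group overlapped with each of the others in CPM, and the MPTP group alone held both the lowest library (11.0 CPM) and one of the highest (18.3 CPM). Group levels were 15 ± 1.25 CPM with the high dose, 14.1 ± 1.65 with the low dose, 16.7 ± 2.90 with levodopa, 14.5 ± 3.64 after MPTP and 15.2 ± 1.41 in controls (SD, n = 3 each). Levodopa was highest and the low dose lowest in mean, and no neighbours in the order of means differed beyond their spread. The log2 fold change of Nfkbia against MPTP was 0.05 for the high dose (95% interval -0.35 to 0.45, edgeR adjusted p = 0.925), -0.04 for the low dose (-0.44 to 0.37, adjusted p = 0.932) and 0.21 for levodopa (-0.20 to 0.61, adjusted p = 0.954). MPTP against control gave -0.07 (-0.47 to 0.33, edgeR adjusted p = 0.918). Changes of more than 0.61 in either direction are outside these intervals, and smaller ones are not excluded by them. Its direction turned in several of these comparisons when 1 library was left out.

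Ptgs2 (GRCm38 chromosome 1, 150100031 to 150108227, plus strand), whose promoter is shown above, was highest in the inhibitor groups. Reads were 553, 649 and 213 with the high dose, 590, 725 and 503 with the low dose, 153, 78 and 289 with levodopa, 34, 237 and 130 after MPTP alone and 146, 129 and 426 in controls. In CPM these were 9.01, 10.8 and 3.59 with the high dose and 9.95, 11.8 and 8.81 with the low dose, against 0.498, 3.47 and 1.93 after MPTP alone. All 6 inhibitor libraries exceeded all 3 MPTP libraries, but high-dose 3 did so narrowly and lay below levodopa 3 (4.20 CPM) and control 3 (6.33 CPM). The log2 fold change against MPTP was 1.99 for the high dose (SE 0.68, 95% interval 0.52 to 3.46, edgeR adjusted p = 0.140), or 3.97-fold. For the low dose it was 2.37 (SE 0.69, 0.88 to 3.86, edgeR adjusted p = 0.0515), or 5.17-fold. Neither passed the adjusted threshold in the fit of all 15 libraries.

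The Ptgs2 call depended on the fit. In low dose against MPTP, DESeq2 gave an adjusted p of 0.00365, edgeR on these 6 libraries alone 0.0154, and edgeR without control 2 and levodopa 2 an adjusted p of 0.0171. For the high dose DESeq2 gave 0.0321, and the other edgeR fits did not pass. With 1 library left out in turn the edgeR adjusted p ran from 0.0682 to 0.153 for the low dose and from 0.147 to 0.389 for the high dose, and the log2 fold change from 1.92 to 3.07 and from 1.54 to 2.68. Both ends of both ranges of the fold change came from leaving out MPTP 1 or MPTP 2, the lowest and the highest Ptgs2 library of that group.

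Other Ptgs2 comparisons lay within the spread or nearer to it. On the log2 scale levodopa against MPTP gave 0.38 (SE 0.66, edgeR adjusted p = 0.955), and MPTP against control -0.85 (SE 0.66, adjusted p = 0.729). The high dose against the low dose gave -0.38 (95% interval -1.80 to 1.03, edgeR adjusted p = 1.00), an interval that leaves room for a difference in either direction. The low dose against control gave 1.52 (SE 0.67, edgeR adjusted p = 0.183), with all 3 low-dose libraries above all controls.

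Most markers of cortical and hippocampal excitatory neurons, cells known to express Ptgs2, moved with it. Of 12 such markers, 2 rose and 0 fell with the high dose and 4 rose and 0 fell with the low dose against MPTP. Of all genes, 1.97% and 8.53% passed in these comparisons. All 12 markers had reads in every library, and 10 had log2 fold changes above 0 with each dose. Cux2 and Rasgrf2 were lower. With the low dose Cux2 had 32.4 to 55.3 CPM, against 57.7 to 62.4 CPM after MPTP. Rasgrf2 had 93.3 to 108 CPM, against 129 to 203 CPM. Neurod6, a transcription factor gene of these neurons, had 64.2 ± 38.9 CPM with the high dose and 78.1 ± 12.0 with the low dose, against 1.75 ± 0.702 after MPTP (SD, n = 3 each, log2 fold changes 5.19 and 5.47, edgeR adjusted p = 0.0126 and 0.00371). High-dose 3, which had the lowest Ptgs2 level of the inhibitor libraries, also had the lowest score of these markers among them, a mean centred log2 CPM of 0.61 against 1.54 to 2.11 in the other 5. Over 15 libraries Ptgs2 and this score had a Pearson r of 0.79, with 0.89 over the 6 inhibitor libraries and 0.24 over the other 9, as a description. Other lists were as close: r with Ptgs2 over 15, 6 inhibitor and 9 other libraries was 0.84, 0.34 and 0.80 for chemokine receptors, 0.80, -0.03 and 0.64 for choroid plexus markers, and 0.77, 0.42 and 0.38 for immediate early genes. Border macrophage markers had an r of -0.10 over all 15 libraries but 0.81 over the 6 and 0.90 over the 9. With the score as a covariate the log2 fold change of Ptgs2 was 0.33 for the high dose (edgeR adjusted p = 0.959) and 0.47 for the low dose (adjusted p = 0.928), and for the low dose against control it turned to -0.26. The score itself separates the inhibitor groups from MPTP, so region and treatment cannot be told apart in these libraries. The 6 inhibitor libraries also differed from the other 9 in read totals, without overlap, and in the empty trailing columns of their files. Whatever lies behind those differences cannot be told apart from treatment either, here or in the other inhibitor comparisons.

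Immediate early genes, which neurons switch on after activity and to which Ptgs2 belongs, were read as a list of 19 other genes. Of these, 6 rose and 0 fell with the high dose and 10 rose and 0 fell with the low dose against MPTP, with summed levels of 661 to 1120 CPM and 848 to 1260 CPM, against 298 to 360 CPM after MPTP, 318 to 423 CPM with levodopa and 412 to 741 CPM in controls. Arc, which encodes a synaptic protein, had 134 ± 50.3 CPM with the high dose and 163 ± 48.4 with the low dose, against 20.0 ± 6.26 after MPTP (SD, n = 3 each, edgeR adjusted p = 0.0233 and 0.00591). Fos, by contrast, had 33.1 ± 10.5 and 27.7 ± 5.99 CPM against 24.7 ± 3.24 after MPTP, and did not pass (edgeR adjusted p = 0.392 and 0.722). Of all genes, 1.97% passed with the high dose and 8.53% with the low dose against MPTP. The part of the immediate early genes in the Ptgs2 level was not tested.

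Other cell markers also moved with the inhibitor groups. Summed choroid plexus markers were 299 to 1480 CPM with the high dose and 907 to 1420 CPM with the low dose, against 28.0 to 37.0 CPM after MPTP, and 2 of 8 and 5 of 8 rose. Control 3, the control with the most Ptgs2, also had the highest choroid plexus sum of its group, 954 CPM against 96.8 and 138 CPM. Of 9 endothelial markers 6 fell with the high dose and 7 fell with the low dose, with sums of 124 to 174 CPM and 148 to 211 CPM, against 254 to 398 CPM after MPTP. Markers of border macrophages, neutrophils and monocytes, and lymphocytes gave no passing gene of 6, 4 and 2 tested, and the last 2 lists had sums of at most 2.63 and 8.38 CPM. All 6 border macrophage markers had log2 fold changes below 0 against MPTP with both doses (medians -1.19 for the high and -0.70 for the low dose), and their sums were 1.70 to 6.03 CPM with the high dose and 4.22 to 6.23 with the low dose, against 6.09 to 11.4 with levodopa, 4.70 to 11.3 after MPTP and 6.99 to 15.7 in controls. Most of the lymphocyte sum in inhibitor libraries was Trbc2, while Cd3e, a defining T cell gene, had at most 0.134 CPM in any library. Over all genes, 1.97% passed with the high dose and 8.53% with the low dose against MPTP. The part of these cell types in the member levels was not tested.

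**Figure D3:**
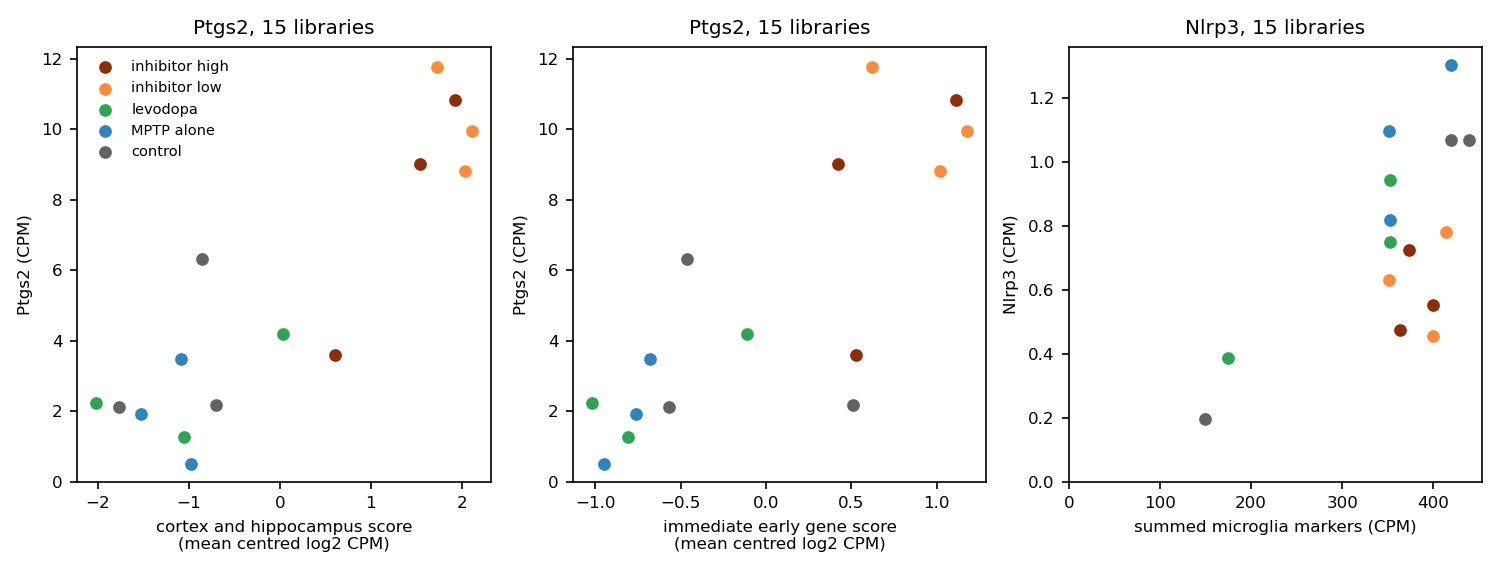
Level of Ptgs2 (CPM) against the cortex and hippocampus marker score and against the immediate early gene score (each the mean of gene-centred log2 CPM), and level of Nlrp3 (CPM) against the summed microglia markers (CPM); each point is 1 of 15 libraries. The inhibitor libraries lie at the upper right for Ptgs2, with high-dose 3 at 3.59 CPM, and control 2 and levodopa 2 lie at the lower left for Nlrp3.

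The pathways around the members were read through 8 lists of 149 other genes, of which 129 were tested. With the high dose 2 rose and 3 fell against MPTP, which is 3.88% of the tested genes, where 1.97% of all genes passed. With the low dose 5 rose and 3 fell, 6.2% where 8.53% of all genes passed. With levodopa against MPTP and with MPTP against control 0 of 129 passed, and the medians of the log2 fold changes were -0.03 and 0.13. The low dose against control gave 2 higher and 1 lower, 2.33% where 5.40% of all genes passed. The high dose against control gave 0 (background 0.376%), as did the high against the low dose (background 0%).

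Of 19 genes of NF-kB subunits, inhibitors and feedback regulators, 0 passed in any of the 7 comparisons, with medians of 0.01 for the high dose and 0.09 for the low dose against MPTP. Nfkb1 and Rela, which encode the p50 precursor and the p65 subunit, had 17.7 ± 2.63 and 19.3 ± 0.770 CPM with the high dose, and 23.1 ± 0.855 and 21.4 ± 1.27 CPM after MPTP (SD, n = 3 each). They are named for their role, not for how they moved, and neither passed (edgeR adjusted p = 0.246 and 0.707). Among 12 tested NF-kB target genes outside the cytokines, 1 rose with each dose and 0 fell. It was Cebpb, which encodes C/EBPβ, a transcription factor whose family binds the motif shown in the Ptgs2 promoter. A link between Cebpb and Ptgs2 was not tested. Cebpb had 3.98 ± 0.826 CPM with the high dose and 4.18 ± 1.76 with the low dose, against 1.40 ± 0.613 after MPTP alone (SD, n = 3 each), with log2 fold changes of 1.50 (SE 0.35, edgeR adjusted p = 0.0498) and 1.58 (SE 0.35, adjusted p = 0.0199). Its reads are uncertain in part, as 18.1% of its stretches of 50 bases also occur in transcripts of Tmem189.

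In the inflammasome list of 14 genes, 1 rose and 1 fell with each dose. Aim2, which senses DNA in the cytoplasm for an inflammasome of its own, had 6.72 ± 0.591 CPM with the high dose and 7.12 ± 1.31 with the low dose, against 2.64 ± 0.629 after MPTP (SD, n = 3 each, edgeR adjusted p = 0.0319 and 0.0107). All 6 inhibitor libraries held 346 to 460 reads of Aim2, against 145 to 228 in the MPTP libraries and 104 to 238 in controls. P2rx7, the gene of an ATP-gated channel whose opening triggers NLRP3, fell to 9.76 ± 0.83 CPM with the high dose and 9.53 ± 0.425 with the low dose, against 15 ± 2.42 CPM after MPTP (edgeR adjusted p = 0.0479 and 0.0180). Casp1 and Pycard, which encode the caspase and the adaptor of the NLRP3 complex and are named for that role, had 1.35 ± 0.595 and 1.21 ± 0.239 CPM with the high dose, against 0.749 ± 0.158 and 1.76 ± 0.313 CPM after MPTP. Neither passed (edgeR adjusted p = 0.449 and 0.399).

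Cytokine genes outside the members gave 0 higher and 1 lower of 11 tested with each dose. The gene that fell was Tnfsf10, which encodes the death ligand TRAIL, at 1.43 ± 0.435 CPM with the high dose and 1.44 ± 0.265 with the low dose, against 4.15 ± 1.45 after MPTP (SD, n = 3 each, edgeR adjusted p = 0.0480 and 0.0233). Of 24 receptor and signalling genes 0 passed with the high dose and 1 fell with the low dose. This was Il6st, the gene of the shared receptor subunit gp130 through which interleukin 6 signals, at 55.6 ± 14.3 CPM with the low dose against 95.3 ± 12.6 CPM after MPTP (edgeR adjusted p = 0.0250). With the high dose Il6st had 65.0 ± 9.64 CPM (edgeR adjusted p = 0.132). The receptors of the members themselves, Il1r1, Tnfrsf1a and Il6ra, did not pass in either dose against MPTP, with edgeR adjusted p of 0.277 to 0.965.

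Of 16 other chemokine genes tested, 0 passed with the high dose, and 2 rose with the low dose. Cxcl5, which encodes a chemokine that attracts neutrophils, had 1.44 ± 0.633 CPM with the low dose against 0.26 ± 0.162 after MPTP (edgeR adjusted p = 0.0496). Ccl27a had 99.9 ± 28.3 CPM against 46 ± 4.56 CPM (edgeR adjusted p = 0.0106), but 45% of its stretches of 50 bases are shared with near-identical copies such as Ccl27b, so its count is uncertain. Among 10 chemokine receptor genes 0 passed with the high dose and 1 rose with the low dose, Ackr2, a scavenging receptor that takes up inflammatory chemokines including those of Ccl2, Ccl3 and Ccl4. It had 90 to 96 reads in low-dose libraries against 10, 3 and 0 in MPTP libraries 1, 2 and 3, and control 1 alone had 134.

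Of 23 prostanoid genes tested, 1 fell and 0 rose with the high dose, and 0 passed with the low dose. The gene that fell was Abcc4, which encodes an exporter of prostaglandins, at 7.7 ± 0.445 CPM with the high dose against 12.7 ± 2.68 after MPTP (SD, n = 3 each, edgeR adjusted p = 0.0363). Ptgs1, the constitutive paralog of Ptgs2, had 12.8 ± 1.49 CPM with the high dose and 15.1 ± 0.376 with the low dose, against 16.4 ± 4.31 after MPTP (edgeR adjusted p = 0.590 and 0.840). Ptges, which encodes an inducible prostaglandin E synthase, had 3.69 ± 0.240 and 4.16 ± 0.752 CPM against 4.45 ± 0.622 CPM after MPTP (edgeR adjusted p = 0.550 and 0.816). The low-dose interval of the log2 fold change of Ptgs1 reached 0.53 at its upper end and that of Ptgs2 began at 0.88, while the difference between the 2 genes was not tested.

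None of these 13 calls of pathway genes, 8 for the low and 5 for the high dose, stood under every alternative. With the cortex and hippocampus score as a covariate each was lost, with edgeR adjusted p from 0.786 to 0.942, but several log2 fold changes stayed close to their size. P2rx7 was at -0.63 with the high dose and -0.67 with the low dose in that fit, Aim2 at 1.12 and 1.15, Abcc4 at -0.63 with the high dose and Ccl27a at 0.89 with the low dose. Il6st, by contrast, was at -0.10 and Ackr2 at 1.55 with the low dose, against -0.78 and 4.58 without the covariate. Aim2 in the low dose was otherwise lost only without MPTP 3 (adjusted p = 0.053) and Ccl27a only without MPTP 2 (adjusted p = 0.0557), and each of the other 11 was lost without any one of 3 to 6 libraries.

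**Figure D4:**
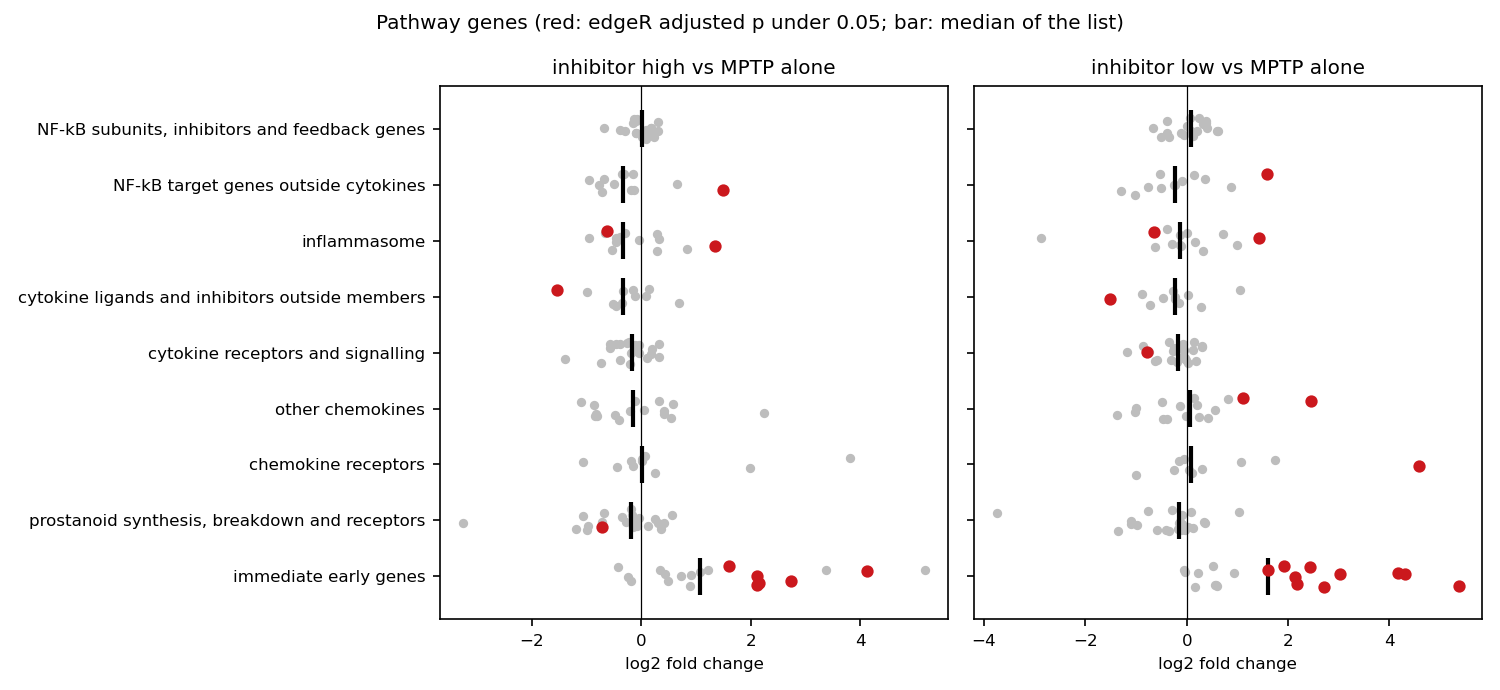
Log2 fold changes of the tested genes of the 8 pathway lists and of the immediate early genes, for the high dose (left) and the low dose (right) against MPTP alone; red points had an edgeR adjusted p below 0.05 and black bars are list medians. Pathway medians lie between -0.34 and 0.09, and those of the immediate early genes at 1.07 and 1.61.

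By Pearson r of log2 CPM over the 15 libraries and 14206 genes with a mean of at least 1 CPM, the genes most like Ptgs2 were Fam118b (0.883), Stn1 (0.881), Rtn4rl2 (0.880), Smoc2 (0.878) and Kcnj13 (0.872). For Nfkbia they were Zfp24 (0.797), Rnf20 (0.787), Zfp791 (0.766), Zkscan1 (0.764) and Thap12 (0.751). Libraries of a group share treatment and tissue differences, so these values describe the libraries. The other members were below 1 CPM on average.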

How the data were processed

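RNA was sequenced from 15 mouse brain libraries prepared with a TruSeq Stranded mRNA kit, per the labels' protocols. The authors deposited whole-number read counts per gene symbol, made with HISAT2 2.1.0, StringTie 2.1.3b, Trimmomatic and bcl2fastq 2.20.0 on the GRCm38 (mm10) genome, per the submitters' processing notes. Neither the annotation nor the strand setting is given in the sources used here. Files of the 6 inhibitor libraries differ from the other 9 in empty trailing columns.

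The deposited counts entered edgeR 4.0.16 under R 4.3.3, with TMM scaling, filterByExpr by group (21821 genes left) and 1 quasi-likelihood model of the 5 groups over all 15 libraries. P-values were adjusted by Benjamini-Hochberg over all genes, with a threshold of 0.05. Each SE is the log2 fold change over the square root of its F statistic. Levels are TMM-scaled CPM. Scores are means of gene-centred log2 CPM (prior count 2). No library pair of a group agreed within sampling noise (chi-square per degree of freedom 31.7 to 512). The fit was tested on simulated data. Changes were placed only in genes with a higher mean level than Ccl3 (0.298 CPM), so the recovery does not cover Ccl3 or Il1b. Counts were drawn independently around 1 mean per gene, without the tissue differences that these libraries share. The numbers of false calls therefore do not carry over to the real comparisons. In low dose against MPTP it recovered 37 of 100 changes of 2-fold and 76 of 100 of 4-fold, with 1 false call. In MPTP against control it recovered 33 of 100 and 76 of 100, with 2 false calls. Most 2-fold changes were thus missed, and a member that did not pass may still differ.

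All members are reported, with fold changes for those passing the filter in the 4 comparisons of neighbouring treatments, and otherwise where groups do not overlap. Pathway genes are named where they passed in any of these 4, or for their role. The members, lists and alternatives were chosen with earlier results of these data known. All 262 list entries matched a symbol. Loci and exon lengths come from GENCODE M21; none of the members' 50-base stretches occurs in another gene's transcripts. Alternatives were RLE scaling, DESeq2 1.42.0, no filter, fits of the compared groups only, the replicate number as a block, a cortex and hippocampus score as covariate, leaving out levodopa 2 and control 2, and leaving out each library in turn.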

Additional observations from a re-analysis of the deposited data

How the results depend on the processing

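Member fold changes, 20 in number, were followed through 254 values under alternatives. Of these values 238 kept their direction and side of the threshold. Another 4 passed it only under the alternative, and 12 turned direction, spread over 7 fold changes. The counts include Il1b, whose fold changes support nothing because it entered the test through the inhibitor libraries. No fold was taken where a compared group was left with no read, as for Il1b in levodopa against MPTP and in MPTP groups without MPTP 2, which holds all Il1b reads of its group. The number of members passing in low dose against MPTP was 1 (Ptgs2) without levodopa 2 and control 2, 1 with the compared groups only and 1 with DESeq2, and in high dose against MPTP it was 1 (Ptgs2) with DESeq2, against 0 in the fit of all libraries; the cause was not tested. With 1 library left out in turn it was 0 in all 7 comparisons.

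Direction turned in these cases. With the cortex and hippocampus score as covariate, Nfkbia in high dose against MPTP was -0.06 and Ptgs2 in low dose against control was -0.26. In that fit Il1b was at 0.58 in high dose and 0.70 in low dose against MPTP. These values support nothing, as Il1b entered the test through the inhibitor libraries. With the replicate block Il1b in MPTP against control was -0.22. With 1 library left out, the log2 fold change of Il1b ran from -0.50 to 1.29 in MPTP against control. For Nfkbia it ran from -0.10 to 0.25 in high dose against MPTP, from -0.19 to 0.16 in low dose against MPTP and from -0.28 to 0.09 in MPTP against control. In levodopa against MPTP it ran from -0.16 to 1.08 for Ptgs2 and from -0.58 to 0.02 for Ccl3.

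The groups share replicate numbers, and what these stand for is not stated. The lowest correlation of deviations between same-numbered libraries was -0.30 to 0.05 per comparison. In MPTP against control it was 0.24 for replicate 1 and 0.05 for replicates 2 and 3, against at most 0.09 between unlike numbers. In the other comparisons no same-numbered pair exceeded 0.10. A shared origin is thus neither shown nor excluded, and the main fit did not pair the libraries. With the replicate block 0 members passed in every comparison, and Ptgs2 against MPTP was 2.16 (edgeR adjusted p = 0.14) for the high dose and 2.50 (adjusted p = 0.0574) for the low dose. The calls of pathway genes in the high dose (Cebpb, P2rx7, Tnfsf10, Abcc4 and Aim2) were lost under the block.

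Over all genes, low dose against MPTP called 1861 genes in the fit of all libraries, 5288 without levodopa 2 and control 2, 4253 with the compared groups only, 3412 with DESeq2, 1224 with no filter and 0 with the cortex and hippocampus covariate. High dose against MPTP called 429, 2477, 3560, 1742, 214 and 2 under the same settings, and 226 with the replicate block. Low dose against control called 1178, against 11 with the compared groups only, 571 with no filter, 2803 with DESeq2, 1859 without levodopa 2 and control 2 and 0 with the covariate. High dose against control called 82, against 3, 35, 1477, 165 and 2 under those settings and 46 with the block. With few reads, Il1b, Tnf, Il6, Ccl2 and Ccl4 allow no statement on differences at this depth.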
